A study of Mus musculus with 5 samples.

Results

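Arterial endothelial cells of the mouse lung were selected from droplet counts by measured values, as endothelial cells that carried UMIs of the connexins *Gja5* and *Gja4* or of the kinase *Bmx*. To enter, a cell needed 700 genes or more, a mitochondrial share of 0.1 to 15%, at least 3 UMIs of *Cdh5*, *Pecam1* and *Cldn5* together, none of *Epcam*, *Pdgfra*, *Pdgfrb* and *Ptprc* and none of the cycling genes *Mki67* and *Top2a*. The rule then asked for at least 2 UMIs of *Gja5*, *Bmx* and *Gja4* together and for none of *Car4*, *Slc6a2*, *Mmrn1* and *Prox1*, which mark aerocytes, veins and lymphatics. Of 29500 cells that passed the quality limits, 2007 (6.8%) met the rule, which was 9.76% of the 20571 endothelial cells that were not cycling. They are called gated cells here, because most of them carried the general capillary genes as well.

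Arteries are lined by endothelium that is kept apart from venous and capillary endothelium by Notch signalling, with the ligand *Dll4*, the receptor *Notch1*, the repressor *Hey1* and the membrane ligand *Efnb2*, and by SoxF factors such as *Sox17*. Arterial endothelial cells are coupled by the connexins *Gja4* and *Gja5*, secrete the chemokine *Cxcl12* and lie on elastic fibres built from elastin, fibrillin, fibulins and latent TGF-β binding proteins. In the lung the smallest arterioles pass into the alveolar capillary bed, which holds general capillary cells (*Gpihbp1*, *Plvap*, *Kit*, *Aplnr*) and aerocytes (*Car4*, *Ednrb*, *Apln*).

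The study asked how loss of β1 integrin from alveolar type 2 (AT2) cells changes repair after a single intratracheal dose of LPS, the endotoxin. β1 AT2-KO mice carried SP-C rtTA, Tet-O-Cre and floxed *Itgb1* and had been given doxycycline, so the deletion was driven in SP-C-expressing epithelium and not in endothelium, and β1 fl/fl controls were littermates without rtTA and Tet-O-Cre that had the same doxycycline. The 5 libraries of adult lung were β1 fl/fl at day 7 after LPS, β1 AT2-KO at day 7 after LPS, β1 AT2-KO at day 7 after PBS, and β1 fl/fl and β1 AT2-KO at day 21 after LPS, each of sorted viable CD45-negative Ter119-negative cells, with epithelial cells enriched in both day 21 libraries. Strings of 5 values follow this order. Each library was a pool of mice, and 3 hashtag antibodies were in use in each by their tag counts. The cells under each tag are called a mouse here. Tags were counted as animals without a separate check of how many animals were pooled. Library and condition cannot be told apart, and the p-values measure only the spread between tagged mice of 1 library per condition.

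The libraries held 29128331, 26777085, 22961007, 8360954 and 17620042 UMIs in cells that passed, and 15 to 102 cell barcodes were shared between pairs of libraries. Sex differed between the libraries. *Xist* was found in the 3 mice of the day 7 β1 fl/fl library and Y-linked genes in the 3 mice of the day 7 LPS β1 AT2-KO library, whereas the PBS library held 1 mouse with *Xist* and 2 with Y-linked genes. Among the day 21 mice, *Xist* exceeded Y-linked genes in β1 fl/fl mice 2 and 3 and in β1 AT2-KO mouse 1. Y-linked genes exceeded *Xist* in β1 AT2-KO mice 2 and 3. At day 21 the cells under the tag of β1 fl/fl mouse 1 held *Xist* at 92.5 and Y-linked genes at 83.2 UMIs per 1000000, so that tag goes against a single animal. *Itgb1*, floxed in all mice and deleted in AT2 cells of the β1 AT2-KO mice, was present in the gated cells of every library, at 964, 1021, 760, 1071 and 721 counts per 1000000 UMIs of the cell set (CPM).

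The gated cells numbered 524, 662, 686, 83 and 52 in the 5 libraries. Most entered through *Gja4* alone. Of the 2007 cells, 1619 (80.7%) carried *Gja4* and neither *Gja5* nor *Bmx*, and 388 carried a UMI of *Gja5* or *Bmx* (92, 183, 74, 28 and 11 cells). A *Gja4* UMI was found in 92.8 to 99.1% of gated cells. A *Gja5* UMI was found in 13% (exact binomial 95% interval 10.2 to 16.2), 21.1% (18.1 to 24.5), 8.16% (6.23 to 10.5), 14.5% (7.70 to 23.9) and 11.5% (4.35 to 23.4), and a *Bmx* UMI in 8.21%, 13%, 3.94%, 26.5% and 15.4%. Intervals cover counting error only. *Gja4* (chr4:127311421-127314039 on GRCm38, minus strand) stood at 1146, 1072, 1212, 889 and 1272 CPM. *Gja5* (chr3:96904693-97077416, plus strand) stood at 115, 172, 45.4, 75.6 and 127 and *Bmx* (chrX:164192842-164258193, minus strand) at 36.7, 56.1, 19.0, 204 and 93.3. These genes chose the cells, so the values describe the gate and were not tested.

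The label was checked with gene lists, and the genes of the rule were left out of the arterial list only. *Epcam*, *Pdgfra* and *Pdgfrb* stayed in the lists of other cell types and, being barred, added nothing to them in gated cells. The general capillary list kept *Gpihbp1*. The other 23 genes of an arterial list summed to 7564 to 10466 CPM in the gated cells of the 5 libraries, above the 5140 to 6453 of general capillary cells, the 4191 to 5848 of venous cells and the 3373 to 4391 of aerocytes. The general capillary list, however, was about as high in the gated cells (10065.7 to 12350.1) as in general capillary cells themselves (10310.0 to 13208.0). *Gpihbp1*, the capillary anchor of lipoprotein lipase, stood at 1848, 1937, 2429, 1764 and 2358 in gated cells against 2258, 2342, 2819, 2405 and 2575 in the capillary cells, which had been chosen for it. *Kit*, a receptor kinase of general capillary cells, stood at 491, 526, 472, 436 and 450 against 472, 514, 445, 545 and 475. The gated cells thus held both sets of genes, and by the arterial list alone the label goes with the smaller *Gja5*/*Bmx*-positive fraction more closely. In that fraction the arterial list reached 10430 to 14351, against 6579 to 8638 in the *Gja4*-only cells. The general capillary list of that fraction is not given here, so the fraction is not shown to be free of capillary genes. Cells with 3 or more gate UMIs, a different set, held *Gpihbp1* at 1821, 1854, 2298, 1973 and 2321.

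Smooth muscle, pericyte and fibroblast lists were low in gated cells, and the alveolar epithelial list was not, although *Epcam* was barred by the rule. Smooth muscle and pericyte genes, which could come from cells that lie against the artery, summed to 98.4 to 164 CPM in gated cells. Fibroblast genes summed to 75.6 to 254. Alveolar epithelial genes varied far more, at 3578, 4130, 634, 2853 and 15472, and general capillary cells held 3442, 7247, 2349, 3843 and 19580, so epithelial RNA was found in both endothelial sets, in the largest amount in the epithelium-enriched day 21 β1 AT2-KO library. Its part in the results was not tested beyond the values given beside them.

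The values on either side of the gate's lower limit of 2 UMIs are given here as a description. In cells that met all other steps, *Cxcl12* (chr6:117168535-117181367, plus strand) stood at 790 CPM with no gate UMI, 1201 with 1, 1374 with 2 and 1851 with 3 or more in the day 7 β1 fl/fl library. In the day 7 LPS β1 AT2-KO library the steps were 1103, 1541, 2101 and 2574, and in the PBS library 923, 1235, 1509 and 1760. *Fbln2*, an elastic fibre protein, was at 23.6, 50.8, 62.1 and 139 in the day 7 β1 fl/fl library. The order was not the same in every library, as *Fbln2* was at 15.2, 20.3, 12.1 and 42.2 in the PBS and 27.5, 36.5, 34.1 and 115 in the day 7 LPS β1 AT2-KO library, and *Cxcl12* at 1115, 1923, 1487 and 2980 in the day 21 β1 AT2-KO library. Cells with more gate UMIs were also deeper in the day 7 β1 fl/fl library, with medians of 1697, 2015, 2424 and 2960 UMIs. In the day 21 β1 AT2-KO library the medians were 1429, 1837, 1739 and 2401. The bar on *Car4* removed many candidates, as 2103 of the 4222 non-cycling endothelial cells with at least 2 gate UMIs carried a *Car4* UMI.

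The share of gated cells was compared between mice over the endothelial cells with 1 tag and without *Car4*, *Slc6a2*, *Mmrn1* or *Prox1*. It was 36.2, 26.3 and 35.9% in the day 7 LPS β1 AT2-KO mice, 21.8, 33.4 and 26.5% in the day 7 β1 fl/fl mice and 20.3, 20.3 and 34.7% in the PBS mice. The groups overlapped. The mean of 32.8 ± 5.63% (SD, n = 3) after LPS differed by 5.55 percentage points from β1 fl/fl (27.2 ± 5.83%, exact two-sided permutation p = 0.3) and by 7.65 points from PBS (25.1 ± 8.31%, exact p = 0.2), and 3 mice against 3 cannot give a p below 0.1. At day 21 the share was 16.8 ± 5.44% in β1 AT2-KO and 19.4 ± 0.645% in β1 fl/fl mice (exact p = 0.9). This difference of -2.58 points turned to 5.20 points when each cell was thinned to 2000 UMIs (exact p = 0.1) and to 0.547 points without β1 AT2-KO mouse 1, which had 6 gated cells. Of all non-cycling endothelial cells, *Car4*-positive ones included, gated cells were 8.48, 15.1, 8.64, 7.05 and 5.88%. By mouse at day 7 they were 234 of 1289, 179 of 1371 and 164 of 916 in LPS β1 AT2-KO mice. They were 135 of 1806, 169 of 1621 and 139 of 1483 in β1 fl/fl and 189 of 2269, 158 of 2109 and 250 of 2071 in PBS mice. On that denominator the LPS β1 AT2-KO mice did not overlap the others, and it was not tested.

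The split of the gated cells rests on genes of the gate and is given as a description, with no test. The *Gja5*/*Bmx*-positive share at day 7 was 19.7, 34.6 and 32.3% in LPS β1 AT2-KO mice, 9.52, 8.23 and 14.0% in PBS β1 AT2-KO mice and 20.7, 14.2 and 20.1% in LPS β1 fl/fl mice. The LPS and PBS β1 AT2-KO mice did not overlap, with means of 28.9 ± 8.06% and 10.6 ± 3.03% (SD, n = 3 each). LPS β1 AT2-KO and β1 fl/fl mice overlapped (18.4 ± 3.62%). Median depth in the *Gja5*/*Bmx*-positive cells was 2725.5 UMIs after LPS in β1 fl/fl, 3036 after LPS in β1 AT2-KO and 2223 after PBS, so the groups also differed in depth. At day 21 the share was 36.8, 30.0 and 27.6% in β1 fl/fl mice (mean 31.5 ± 4.8%) and 0, 15 and 30.0% in β1 AT2-KO mice, where the 0 is of 6 cells and allows a share of up to 50%.

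**Figure D1:**
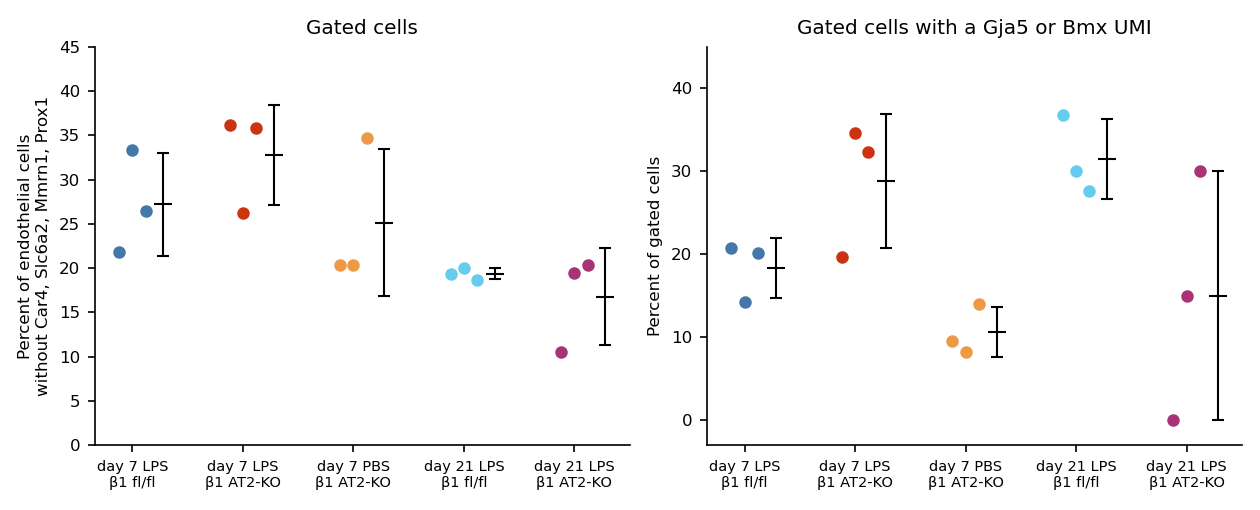
Share of gated cells among endothelial cells with 1 tag and without *Car4*, *Slc6a2*, *Mmrn1* or *Prox1* (left, percent) and share of gated cells with a *Gja5* or *Bmx* UMI (right, percent), 1 point per mouse with the mean ± SD of 3 mice as a bar. The right panel shows the day 7 LPS β1 AT2-KO mice at 19.7 to 34.6% and the PBS β1 AT2-KO mice at 8.23 to 14.0%, with no overlap.

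*Gja5*/*Bmx*-positive cells carried more of most arterial genes and of several elastic fibre genes than the *Gja4*-only cells, and less of the MHC genes and of *Aplnr*. The comparison was chosen after the share of *Gja4*-only cells had been seen, and it set the 2 fractions of the same mouse beside each other in the 9 day 7 mice with at least 10 cells of each, on genes that neither the gate nor the split used. In edgeR's quasi-likelihood test, 143 of 4424 genes (3.23%) were higher and 166 (3.75%) lower in *Gja5*/*Bmx*-positive cells at an adjusted p under 0.05. Of 17 arterial genes tested 14 were higher and 1 lower, with a median log2 difference of 0.81 against 0.0133 over all genes. Median depth differed little between the fractions at day 7 (2725.5 and 2717, 3036 and 2850, 2223 and 2331.5 UMIs).

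The largest difference was in *Atp13a3*, a transporter of the polyamine family of P-type ATPases that lies on chr16:30312423-30405975. Its level was 940.3, 815, 193, 1024 and 1223 CPM in the *Gja5*/*Bmx*-positive cells of the 5 libraries and 73.7, 47.9, 52.4, 6.86 and 0 in the *Gja4*-only cells. It was 9.99-fold higher in the fit (log2 3.32 ± 0.22 SE, adjusted p = 6.89e-14) and higher in 9 of 9 mice. It was higher in *Gja5*/*Bmx*-positive cells in every library, and the PBS library had the lowest level.

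Elastic fibre genes followed. *Ltbp4*, which binds latent TGF-β and elastic fibres, stood at 498, 548, 246, 746 and 442 against 73.7, 81.6, 65.9, 82.3 and 56.5 (log2 2.50 ± 0.15, adjusted p = 9.8e-15). *Fbln2* stood at 374, 231, 88.8, 468 and 67.9 against 55.1, 34.4, 22.0, 20.6 and 11.3 (log2 2.6 ± 0.24, 8 of 9 mice). *Mgp*, the inhibitor of arterial calcification, was higher in all 9 mice (log2 2.07 ± 0.25) but not in the 11 cells of the day 21 β1 AT2-KO library (67.9 against 79.1), which were not in the fit. *Eln*, the elastin gene, differed less, at 0.72 ± 0.17 on the log2 scale. Basement membrane collagen went the other way, with *Col4a1* lower by a log2 difference of -0.54 ± 0.09 and *Col4a2* by -0.51 ± 0.11. In all, 4 of the 12 elastic fibre and matrix genes were higher and 2 lower. The fibroblast marker list summed to 182, 274, 600.9, 63.2 and 67.9 CPM in the *Gja5*/*Bmx*-positive and 180, 246, 28.4, 82.3 and 90.5 in the *Gja4*-only cells, with its widest gap in the PBS library, and its part in the matrix values was not tested.

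Notch pathway genes were higher with 1 exception among those called, 5 of 11 being higher and 1 lower (median log2 0.33). The ligand *Dll4* stood at 364, 415, 319, 253 and 339.6 in *Gja5*/*Bmx*-positive cells against 167, 177, 158, 281 and 260.1, higher in each day 7 library and not in day 21 β1 fl/fl (log2 1.15 ± 0.13, adjusted p = 4.77e-08, 9 of 9 mice). The Notch target *Nrarp* (log2 1.01 ± 0.16), the receptor *Notch1* (0.90 ± 0.13), *Efnb2* (0.76 ± 0.10) and the target *Hey1* (0.49 ± 0.10) were higher. The repressor *Hes1*, also a Notch target, was lower (-0.78 ± 0.17).

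Transcription factors moved in both directions. *Gata6*, a zinc finger factor of the vascular wall and endoderm, was higher (log2 1.12 ± 0.21), as was *Sox18* (0.48 ± 0.11). The other SoxF factors were lower in the *Gja5*/*Bmx*-positive cells, *Sox7* by -0.60 ± 0.13 and *Sox17* by -0.48 ± 0.09. *Sox17* stood at 302, 499.8, 345, 240.1 and 272 against 436, 641, 528, 479.9 and 441, lower in every library, and was the single arterial gene called lower. *Foxf1*, a factor of lung capillaries, was lower as well (-0.40 ± 0.08).

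Signalling genes marked the fractions in both directions. *Cxcl12* was higher in the *Gja5*/*Bmx*-positive cells, at 2907, 3528, 2309.6, 2654 and 4551 against 1416, 1989.9, 1571, 1906 and 1696 (log2 0.81 ± 0.08, adjusted p = 6.94e-09). Its decoy receptor *Ackr3* was lower in the 9 mice (log2 -1.40 ± 0.20). *Aplnr*, the apelin receptor of general capillary cells, showed the largest fall of the list, at 30.9, 19.9, 26.1, 12.6 and 169.8 against 179, 187, 127, 226 and 181 (log2 -2.90 ± 0.26, adjusted p = 1.54e-10, lower in 9 of 9 mice). Only the day 21 β1 AT2-KO library, with its 11 cells, showed no such gap. *Vegfc* (-1.57 ± 0.34) and *Sema3c* (-1.12 ± 0.09) were lower, and *Sema3g* (0.56 ± 0.11), *Plxnd1* (0.55 ± 0.16) and *Vegfa* (0.40 ± 0.09) higher.

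Among BMP and TGF-β genes the inhibitory *Smad6* (log2 0.94 ± 0.12), the co-receptor *Eng* (0.39 ± 0.07) and *Id1* (0.32 ± 0.10) were higher and none of 13 lower. *Vwf*, the platelet-binding factor that larger vessels store, stood at 697, 731, 554, 1605 and 611 against 187, 177, 169, 165 and 22.6 (log2 2.06 ± 0.13). The chemokine *Cx3cl1* was higher (1.22 ± 0.20). Of the vasoactive genes, *Edn1* (endothelin), *Ece1* (its converting enzyme) and *Ace* were higher by 0.49 ± 0.13, 0.40 ± 0.09 and 0.27 ± 0.08. *Ptgs1* (cyclooxygenase), *Thbd* (thrombomodulin) and the natriuretic peptide receptor *Npr3* were lower by -1.82 ± 0.32, -0.58 ± 0.09 and -0.51 ± 0.15.

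Antigen presentation genes were lower in the *Gja5*/*Bmx*-positive cells. Of 13 MHC genes tested 10 were lower and none higher (median log2 -0.40). *Cd74*, the class II invariant chain, stood at 1596, 2182, 4598, 1630.1 and 3634 against 3535, 3956, 6257, 2989 and 5687 (log2 -0.72 ± 0.10, adjusted p = 4.47e-06). It was lower in every library and in 9 of 9 mice. The class II genes *H2-DMa* (-0.89 ± 0.22), *H2-Eb1* (-0.67 ± 0.16) and *H2-Aa* (-0.67 ± 0.11) had larger differences than the class I genes *H2-K1* (-0.29 ± 0.07) and *B2m* (-0.24 ± 0.07), a ranking that was not tested, and reads of this gene family may be shared among near-identical members.

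*Gja4*-only cells differed from general capillary cells, which carried at least 2 *Gpihbp1* UMIs and no gate UMI, by smaller steps. Over 14 mice, 120 of 5636 genes (2.13%) were higher in *Gja4*-only cells and 122 (2.16%) lower, and 9 of 15 arterial genes were higher and 1 lower (median log2 0.32 against -0.00593 over all genes). *Cxcl12* stood at 1416, 1989.9, 1571, 1906 and 1696 in *Gja4*-only cells and 774, 1066, 912, 1149 and 1012 in capillary cells (log2 0.84 ± 0.07, adjusted p = 2.5e-17, higher in 13 of 14 mice). The taurine transporter *Slc6a6* was higher in all 14 mice (375, 538, 418, 439 and 384 against 182, 262, 164, 211 and 194, log2 1.10 ± 0.08). Both genes were higher in *Gja4*-only cells in every library.

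*Sox17* was higher in *Gja4*-only than in capillary cells (log2 0.49 ± 0.06), as were *Stmn2* (0.50 ± 0.06), *Pcsk5* (0.51 ± 0.10), *Edn1* (0.43 ± 0.07), *Efnb2* (0.35 ± 0.06) and *Hey1* (0.32 ± 0.07). *Dll4* and *Notch1* were not called (-0.03 ± 0.09, adjusted p = 0.913, and -0.28 ± 0.09, adjusted p = 0.0646). The neurotrophin receptor *Ntrk2* (0.89 ± 0.10), the enzyme of polyamine synthesis *Amd1* (1.06 ± 0.14) and the kinase *Sgk1* (0.58 ± 0.06) were higher outside the arterial list. The VEGF receptors *Kdr* (-0.36 ± 0.07), *Flt1* (-0.33 ± 0.07) and *Flt4* (-0.57 ± 0.16) were lower, and so was *Mgp* (-0.44 ± 0.11). The shear-responsive factors *Klf2* and *Klf4* were higher by 0.25 ± 0.05 and 0.28 ± 0.05. Alveolar epithelial and macrophage genes were among the largest falls, with *Lyz2* at 249, 215, 26.5, 219 and 1063 against 244, 453, 125, 299 and 1237. Capillary cells were shallower (median 1913.5, 1983.5, 1862, 1717.5 and 1660 UMIs against 2717.5, 2897.5, 2312.5, 2579 and 2049 in all gated cells), and the part of depth in these differences was not tested.

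**Figure D2:**
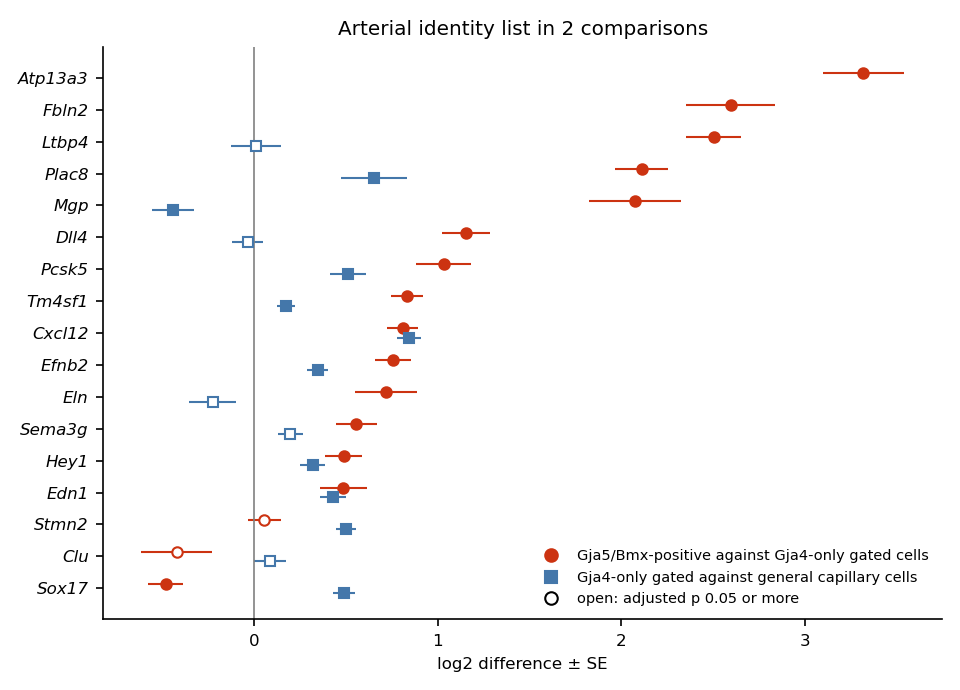
Log2 difference ± SE of each tested arterial gene between *Gja5*/*Bmx*-positive and *Gja4*-only gated cells (circles, 9 mice) and between *Gja4*-only and general capillary cells (squares, 14 mice), open where the adjusted p was 0.05 or more. *Atp13a3* and *Fbln2* have no square because they were not tested there, *Cxcl12* lies near 0.8 in both, and *Sox17* and *Mgp* lie on opposite sides of 0.

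Over all gated cells, 130 of 5840 genes (2.23%) were higher and 131 (2.24%) lower than in general capillary cells, and 12 of 16 arterial genes were higher (median 0.46). For the *Gja5*/*Bmx*-positive cells alone the counts were 129 (2.94%) and 133 (3.03%) of 4394 genes, with 13 of 16 arterial genes higher (median 1.05). In all gated cells the largest rises were *Atp13a3* (log2 3.34 ± 0.19), *Plac8* (1.49 ± 0.15), *Slc6a6* (1.15 ± 0.07), *Amd1* (1.10 ± 0.14), *Cxcl12* (1.07 ± 0.07) and *Gata6* (1.05 ± 0.18). *Plat*, tissue plasminogen activator, was higher in 14 of 14 mice (0.81 ± 0.11). These comparisons share cells with the ones above.

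Venous cells, chosen for a *Slc6a2* UMI, differed more widely. In 10 mice, 229 of 1818 genes (12.6%) were higher in gated cells and 282 (15.5%) lower, and of 14 arterial genes 9 were higher and 3 lower (median 1.02 against 0.00462). The only day 21 mouse in this fit was β1 fl/fl mouse 1, the tag with mixed sex genes, and without it 300 genes were higher and 390 lower of 4189 tested. *Dll4* stood at 202, 246, 176, 271 and 279.9 CPM in gated and 14.2, 25.2, 15.3, 0 and 0 in venous cells (log2 3.84 ± 0.29, adjusted p = 1.22e-11). *Sema3g* was next among arterial genes (3.57 ± 0.22), followed by *Efnb2* (2.72 ± 0.15), *Cxcl12* (2.49 ± 0.24), *Hey1* (2.38 ± 0.20) and *Sox17* (2.14 ± 0.17). *Dll4* was higher in gated cells in every library.

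Some elastic fibre genes were higher in veins. *Fbln5* (log2 -2.75 ± 0.24), *Eln* (-1.44 ± 0.17) and *Ltbp4* (-1.29 ± 0.14) were lower in gated than in venous cells, as was *Vwf*, at 278, 337, 212, 671 and 169.7 against 2736, 1831, 2169, 3076 and 3929 (-2.98 ± 0.12). With the *Gja5*/*Bmx*-positive cells in place of all gated cells *Ltbp4* came to 0.16. The carbonic anhydrase relative *Car8* (-5.93 ± 0.21), the ectoenzyme *Bst1* (-4.57 ± 0.30) and the protease *Prss23* (-4.29 ± 0.09) were the largest falls. Immediate early genes were lower in gated cells, 10 of 16 being called, for example *Fosb* (-1.52 ± 0.17), *Egr1* (-1.28 ± 0.15) and *Fos* (-0.85 ± 0.14). Of 12 MHC genes 6 were higher in gated cells and 1 lower, with *Cd74* at 1.08 ± 0.14.

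Aerocytes, the thin capillary cells of gas exchange, chosen for 2 *Car4* UMIs, gave the most called genes, with 1446 (20.3%) of 7118 genes higher in gated cells and 1414 (19.9%) lower in 14 mice. Of 17 arterial genes 15 were higher and 2 lower (median 1.94 against 0.00466). *Cxcl12* stood at 1682, 2434, 1652, 2169 and 2409 against 199.9, 250.3, 216, 104 and 70.2 (log2 3.18 ± 0.10, adjusted p = 8.06e-28). *Edn1* (2.85 ± 0.14), *Vwf* (3.30 ± 0.14), *Slc6a6* (3.22 ± 0.10) and *Atp13a3* (3.81 ± 0.16) were higher in 14 of 14 mice. *Kdr*, the main VEGF receptor, stood at 299, 294, 223, 351 and 390.2 against 1948, 1904, 1657, 2840.4 and 3434 (-2.84 ± 0.07), and the endothelin receptor *Ednrb* (-5.68 ± 0.15), *Apln* (-5.69 ± 0.12) and *Fibin* (-6.31 ± 0.12) were lower still. *Ncam1* was at 0 in the gated cells of all 5 libraries and at 48.2 to 84.0 in aerocytes.

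LPS in β1 AT2-KO mice gave the widest change between conditions. At day 7, 212 of 7788 genes (2.72%) were higher after LPS than after PBS in the gated cells and 224 (2.88%) lower, 3 mice against 3, with 1238 genes at an unadjusted p under 0.05. Overlap between mice is given below only to describe called genes, and its share over all genes tested was not counted. Of the lists, 10 of 17 elastic fibre and matrix genes and 7 of 21 arterial genes rose, whereas *Gata2*, *Cdkn1a*, 6 of 19 BMP and TGF-β genes and 5 of 17 immediate early and heat shock genes fell. The PBS library differed in 1 more respect, as PBS mouse 1 was the mouse with *Xist*. Without it 390 genes were called, 322 of them shared, and without LPS β1 AT2-KO mouse 3 223 were called, 219 of them shared. Without PBS mouse 2 there were 283, of which 263 were shared.

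The elastic fibre and matrix list rose as a group, 10 of 17 genes rising and none falling (median log2 0.82 against 0.0166 over all genes). *Col4a2*, a basement membrane collagen, stood at 753, 449 and 835 CPM after LPS and 383, 249 and 251 after PBS (log2 1.16 ± 0.19, adjusted p = 4.99e-05), with no overlap. *Ltbp4* stood at 148, 268 and 277 against 105, 37.0 and 104 (1.38 ± 0.23), also without overlap. *Fn1*, which encodes fibronectin, was scarce at 23.9, 40.4 and 80.3 against 5.55, 0 and 7.17 (3.19 ± 0.55). *Fbn1* (fibrillin), *Fbln5* and *Fbln2* rose by 3.07 ± 0.53, 2.19 ± 0.55 and 1.49 ± 0.39, the fibulins with overlap between the groups. *Sparc* (0.78 ± 0.17), *Col4a1* (0.78 ± 0.19) and *Nid1* (0.82 ± 0.21) rose less. *Col3a1* and *Col1a2*, collagens of fibroblasts, rose too (2.51 ± 0.40 and 2.13 ± 0.52), and the fibroblast list summed to 254 after LPS against 91.5 after PBS, so their part in the matrix values was not tested.

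Of 21 arterial genes 7 rose and none fell (median 0.43). *Plac8* stood at 88.7, 132 and 209 after LPS and 14.8, 37.0 and 23.3 after PBS (log2 2.51 ± 0.34, adjusted p = 2.84e-06), and the protease *Pcsk5* at 214, 265 and 355 against 105, 66.1 and 143 (1.32 ± 0.20). Both were without overlap. *Atp13a3* (1.82 ± 0.37) and *Mgp* (1.5 ± 0.26) rose as well, *Atp13a3* with overlapping mice. *Mecom*, a transcription factor of arterial endothelium and stem cells, stood at 36.6, 51.5 and 82.1 against 3.70, 7.94 and 14.3 (2.58 ± 0.43). In general capillary cells *Mecom* was at 22.1 after LPS and 7.9 after PBS, and in the *Gja5*/*Bmx*-positive cells at 131 and 52.3.

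Transcription factors gave 3 rises and 2 falls of 18. *Klf6*, an injury-induced Krüppel-like factor, was even between mice at 462, 450.4 and 467 after LPS and lower at 274, 219.6 and 179 after PBS (1.00 ± 0.16, adjusted p = 3.45e-05). *Gata2*, a factor of endothelial and blood lineages, fell from 409, 413 and 342 to 180.1, 119 and 99.9 (-1.56 ± 0.17, adjusted p = 3.44e-08). Neither gene overlapped between the groups. *Sox18* fell by 0.58 on the log2 scale and *Bcl6b* rose by 0.98. Of the Notch list, *Nrarp* rose (0.94 ± 0.25) and *Lfng*, a glycosyltransferase that tunes Notch, fell (-1.04 ± 0.24), and the other 12 were not called.

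*Xist* apart, the largest falls in well-detected genes included *Zbtb16*, *Cdkn1a*, *Sgms1* and *Lims2*. *Zbtb16*, a zinc finger repressor on chr9:48654297-48836222, stood at 331, 286 and 233 after PBS and 36.6, 40.4 and 41.0 after LPS, 7.36-fold lower (log2 -2.88 ± 0.24, adjusted p = 3.69e-11). *Cdkn1a*, the p21 cell cycle inhibitor, stood at 816, 609 and 308 against 165, 149 and 155 (-1.92 ± 0.27). *Sgms1*, a sphingomyelin synthase, stood at 381, 410.1 and 369 against 138, 99.3 and 109 (-1.77 ± 0.17), and *Lims2*, an adaptor of integrin adhesions, at 376, 368 and 333 against 139, 107 and 105 (-1.64 ± 0.16). None of the 4 genes overlapped between the groups, which adds no support, as they were picked as large called falls. *Coro2a* (-2.64 ± 0.50), *A4galt* (-2.17 ± 0.34) and *Sult1a1* (-1.83 ± 0.27) fell from lower levels.

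Some members of the signalling and stress lists fell. BMP and TGF-β genes gave 6 falls and no rise of 19 (median -0.09), namely *Smad7* (-0.71 ± 0.15), the ligand *Bmp6* (-0.66 ± 0.16), *Eng* (-0.62 ± 0.14), *Smad6* (-0.61 ± 0.16), *Id3* (-0.60 ± 0.15) and the receptor *Acvrl1* (-0.58 ± 0.14). *Eng* was at 1283, 1147 and 1179 after LPS and 1732, 1646 and 2038 after PBS. Vasoactive genes gave 4 falls, of *Npr3* (-1.33 ± 0.18), *Ptgs1* (-1.28 ± 0.22), *Thbd* (-0.72 ± 0.15) and the adrenomedullin receptor partner *Ramp2* (-0.64 ± 0.15), and 1 rise, of *Ptgs2*, which had counts in a single mouse. Immediate early and heat shock genes gave 5 falls of 17, of *Jun*, *Junb*, *Jund*, *Hspa8* and *Hsp90aa1* (-0.78 to -0.53), while *Fos* stood at 1895 after LPS and 1610 after PBS and *Ier3* at 2242 and 1803. Interferon-stimulated genes gave 3 falls of 24 (*Irf1*, *Stat2*, *Tap1*, median -0.37) and MHC genes 2 of 14 (median -0.40). Of the adhesion list *Vcam1* (2.08 ± 0.57) and *Cd34* (1.01 ± 0.22) rose, and *Ly6c1*, *Ly6a* and *Csf1* fell. The replication genes *Mcm6* (1.59 ± 0.38) and *Mcm2* (1.79 ± 0.49) rose although cells with *Mki67* or *Top2a* had been barred. No integrin gene of 8 was called by edgeR, *Itgb1* standing at 991, 984 and 1140 after LPS and 860, 368 and 880 after PBS (log2 0.52 ± 0.18, adjusted p = 0.0994). This fit called 25% of genes changed by a log2 of 1 in simulated counts with a fixed spread.

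**Figure D3:**
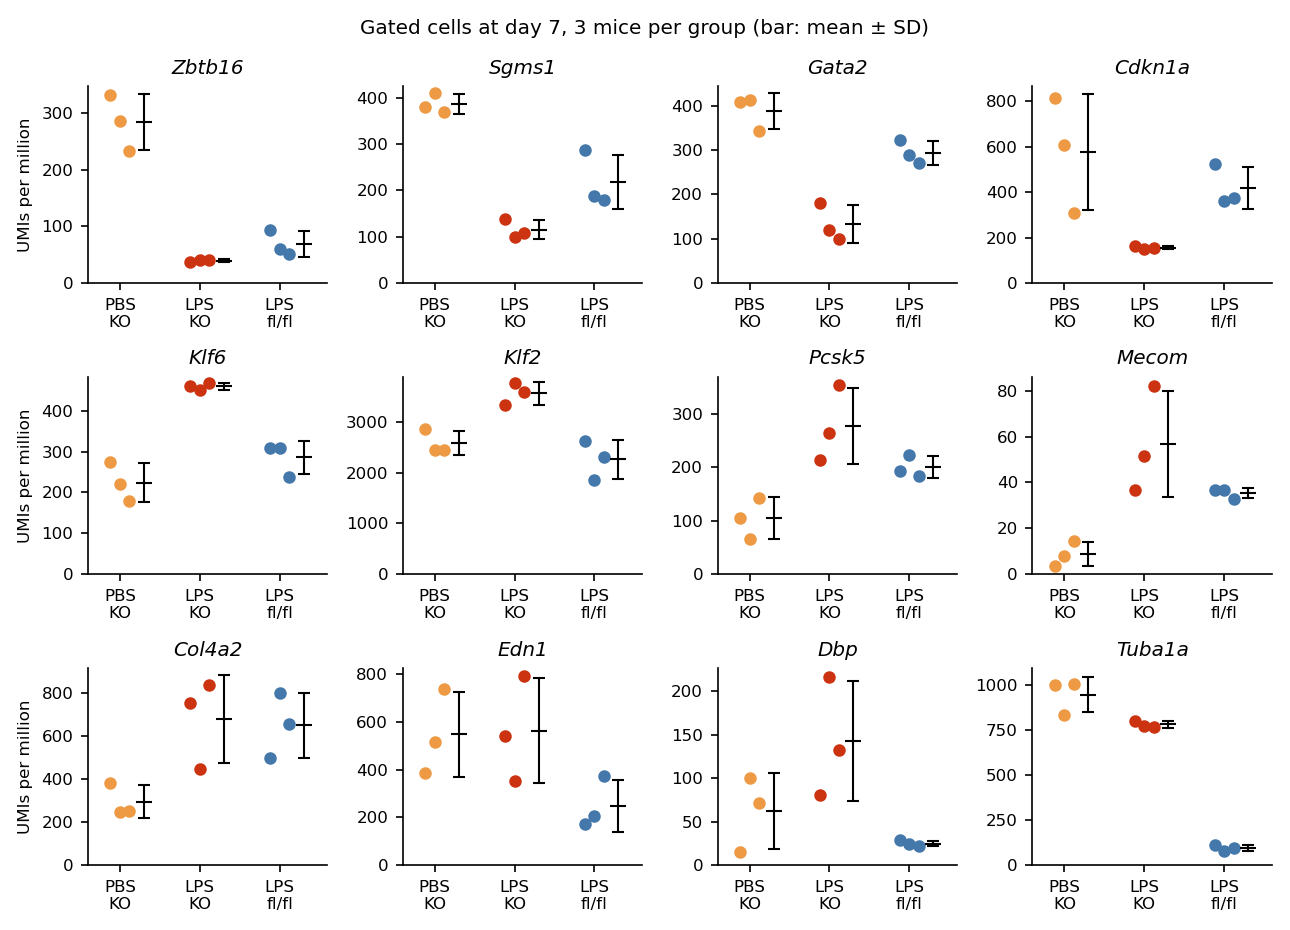
Level of 12 genes (CPM, axes from 0) in the gated cells of each day 7 mouse, with PBS β1 AT2-KO, LPS β1 AT2-KO and LPS β1 fl/fl in order and the mean ± SD of 3 mice as a bar. *Zbtb16*, *Sgms1*, *Gata2* and *Cdkn1a* are lowest and *Klf6* is highest in the LPS β1 AT2-KO mice, and *Tuba1a* separates the β1 fl/fl mice (75.2 to 111) from both β1 AT2-KO groups.

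Epithelial RNA rose in the same comparison. *Sftpc*, the AT2 surfactant gene, stood at 2633, 5168 and 2178 after LPS and 211, 309.5 and 290.4 after PBS in gated cells (log2 3.59 ± 0.23), and *Lamp3*, *Scgb3a2*, *Lcn2*, *Sftpd* and *Wfdc2* were among the largest rises. In general capillary cells the library values of *Sftpc* were 6055 and 1707. When the 13 called genes on the lists of other cell types were left out, a choice made after seeing the data, 423 genes were called, 200 of them higher. *Lcn2* and *Wfdc2* are not on those lists and stayed in. The count therefore does not give the epithelial part of the calls.

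The LPS difference was then read within *Gja5*/*Bmx*-positive cells, whose share had differed between the groups. With these cells alone 40 of 2043 genes were called, 17 higher and 23 lower, and 38 were shared with the comparison of all gated cells. As these cells are part of the gated cells of the same mice, the sharing adds no support. *Zbtb16* (log2 -3.35), *Cdkn1a* (-2.20), *Sgms1* (-1.99), *Lims2* (-1.62) and *Thbd* (-1.0) fell, and *Pcsk5* (1.93, adjusted p = 0.0229) and *Ltbp4* (1.22, adjusted p = 0.0392) rose. *Atp13a3* (1.86, adjusted p = 0.0535), *Plac8* (1.99, adjusted p = 0.0535), *Col4a2* (0.84, adjusted p = 0.129) and *Klf6* (1.11, adjusted p = 0.0662) had like values without passing. *Mgp* did not keep its sign (-0.45, adjusted p = 0.77). Fewer cells and fewer genes entered this fit.

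**Figure D4:**
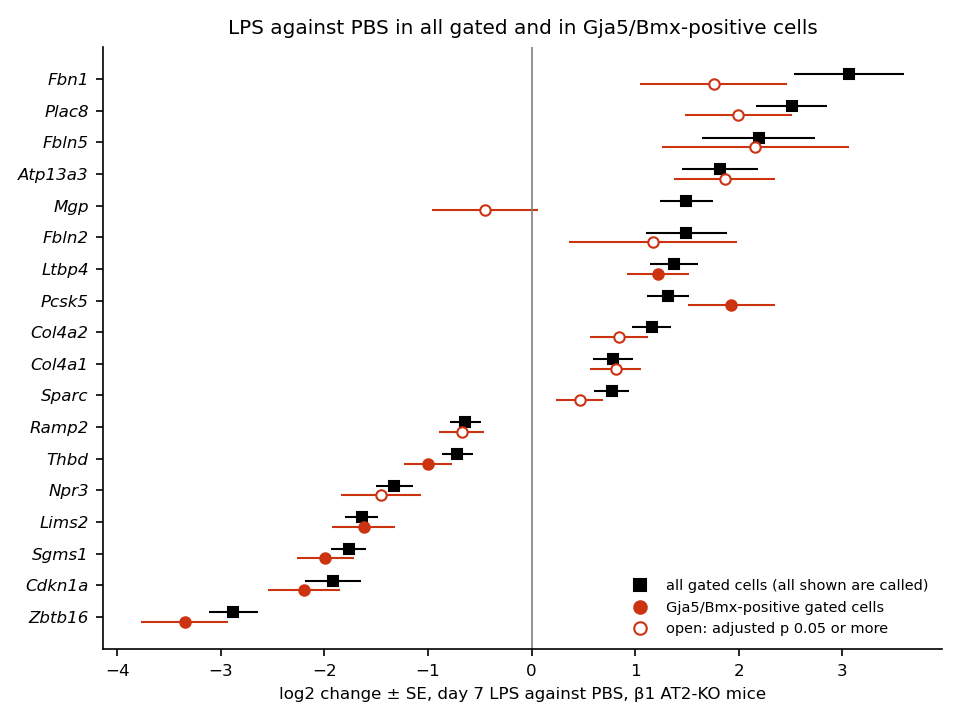
Log2 change ± SE from PBS to LPS at day 7 in β1 AT2-KO mice for 18 genes, in all gated cells (squares) and in *Gja5*/*Bmx*-positive cells alone (circles, open where the adjusted p was 0.05 or more). Falls such as *Zbtb16* (-2.88 and -3.35) lie close together, and *Mgp* moves from 1.5 to -0.45.

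The change was also set beside general capillary cells of the same mice. *Zbtb16* was at 42.7 after LPS and 294.5 after PBS in gated cells and at 43.5 and 357.6 in capillary cells, and *Gata2* at 134.8 and 387.7 against 141.7 and 367.8. The test of the difference between the gated and the capillary LPS effect called 1 gene higher (0.0121% of 8295) and 8 lower (0.0964%), with 373 genes at an unadjusted p under 0.05, and DESeq2 called none, with 191 at an unadjusted p under 0.05. None of the arterial, Notch or matrix genes was among them. *Car14*, a membrane carbonic anhydrase, stood at 89.7 after LPS and 193 after PBS in gated cells and at 157 and 146 in capillary cells (difference of log2 changes -1.19 ± 0.23, adjusted p = 0.00304). *Rcan1*, a calcineurin inhibitor, stood at 123 and 104 against 173 and 74.3 (-1.16 ± 0.26), and *Ackr3* at 231 and 164 against 292 and 125 (-0.99 ± 0.21). *Rcan1* was not called without LPS β1 AT2-KO mouse 2 or 3 or PBS mouse 1 or 2 (adjusted p = 0.564, 0.175, 0.222 and 0.468), nor *Ackr3* without LPS β1 AT2-KO mouse 1 or 3 or PBS mouse 1 or 2 (0.0683, 0.0851, 0.236 and 0.0757), and *Car14* was not called without PBS mouse 1 (0.105) or LPS β1 AT2-KO mouse 3 (0.0696). *Clec3b*, *Rsad2*, *Gsn*, *Dcn* and *Serping1* rested on PBS mouse 2, without which their adjusted p was 1.00, and *Sftpa1* on PBS mouse 1.

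At day 7 after LPS, genotype gave fewer differences. In LPS β1 AT2-KO against LPS β1 fl/fl mice, 49 of 7788 genes (0.629%) were higher and 24 (0.308%) lower, with 618 at an unadjusted p under 0.05. Without the sex-linked list, also left out after seeing the data, 68 were called. The count was 46 without β1 AT2-KO mouse 2 and 37 without β1 fl/fl mouse 2, and the 2 libraries held mice of different sex throughout, so that genotype, sex and library cannot be told apart.

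Among the called genes was *Tuba1a*, an α-tubulin gene that shares near-identical sequence with other tubulin genes and lies on chr15:98949837-98953703. It stood at 801, 772 and 764 in β1 AT2-KO and 111, 75.2 and 94.2 in β1 fl/fl mice, 8.45-fold higher (log2 3.08 ± 0.20, adjusted p = 7.07e-14). General capillary cells held it at 735.1 and 123.9, so the gap was not limited to gated cells, and the PBS β1 AT2-KO library held 938.7. *Gm8797*, a predicted gene, went the other way, at 8.44, 11 and 7.14 against 173, 136 and 184 (-4.15 ± 0.28). *Dbp* and *Tef*, output genes of the circadian clock, were higher (2.51 ± 0.38 and 1.69 ± 0.33), 2 of 9 clock genes being called and none lower (median 0.98 against 0.00275).

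Endothelial genes gave a short list. *Edn1*, the vasoconstrictor, stood at 543, 353 and 794 in β1 AT2-KO and 170.3, 204 and 373 in β1 fl/fl mice (1.17 ± 0.23, adjusted p = 0.00352) and overlapped. *Klf2* stood at 3324, 3770.4 and 3597 against 2619.7, 1855 and 2308 (0.66 ± 0.15), and *Klf6* at 462, 450.4 and 467 against 309, 310.1 and 239 (0.69 ± 0.15), both without overlap. As both were picked as called genes, the lack of overlap adds no support. The ligands *Bmp4* (1.60 ± 0.35) and *Csf1* (1.09 ± 0.26) were higher. *Gata2* was lower at 180.1, 119 and 99.9 against 324, 288 and 269.6 (-1.12 ± 0.18), as were *Cdkn1a* (-1.41 ± 0.27), *Sgms1* (-0.89 ± 0.18), the lipase *Lipe* (-1.19 ± 0.20) and the chaperone *Hspa1b* (-1.38 ± 0.33). *Ccl21a*, a lymphatic chemokine, was at 835 in 1 β1 fl/fl mouse.

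Arterial identity was not called to differ by genotype apart from *Edn1*, which is 1 of 21 arterial genes (median 0.19). *Cxcl12* stood at 2398, 1816 and 3187 in β1 AT2-KO and 1768, 1495 and 1973 in β1 fl/fl mice (0.50 ± 0.21, adjusted p = 0.493), and *Atp13a3* at 91.5, 246 and 482 against 312, 262 and 206 (0.06 ± 0.32, adjusted p = 0.988). No matrix gene of 17, Notch gene of 14, MHC gene of 14 or integrin gene of 8 was called. This fit called 33.9% of genes changed by a log2 of 1 in simulated counts with a fixed spread, and 88.4% of those changed by 2. Genes that were not called are therefore not shown to be alike. *Sftpc*, at 2633, 5168 and 2178 against 1399, 1143 and 962, moved with the groups (1.51 ± 0.21), as did *Sftpb*, *Sftpd* and *Lyz2*. The test of whether the genotype effect differed between gated and capillary cells called no gene in either direction (0% of 8295), with 306 at an unadjusted p under 0.05 in edgeR, and 0 in DESeq2 with 177 at an unadjusted p under 0.05.

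At day 21 the gated cells of 2 β1 AT2-KO and 3 β1 fl/fl mice had at least 10 cells each, 19 to 29 per mouse. Cells of β1 AT2-KO mice 2 and 3 held Y-linked genes at 77.2 and 106 CPM and *Xist* at 19.7 and 8.69. Those of β1 fl/fl mice 2 and 3 held *Xist* at 255 and 214 and Y-linked genes at 1.63 and 1.42. β1 fl/fl mouse 1 was the tag with mixed sex genes. Genotype, sex and library therefore cannot be told apart in this comparison either. Here 4 of 7788 genes were higher in β1 AT2-KO mice (0.0514%) and none lower (0%), with 485 at an unadjusted p under 0.05, and DESeq2 also called 4. All 4 are genes of the epithelium or of macrophages. *Sftpc* stood at 12340.5 and 14332 against 2370.1, 2002 and 2429 (log2 2.54 ± 0.24), and *Sftpa1* (2.77 ± 0.45), *Lyz2* (2.28 ± 0.31) and *Cxcl15* (2.24 ± 0.39) were higher with it. Of 21 arterial genes none was called (median -0.03 against -0.05 over all genes). In simulated counts with a fixed spread, this fit called 0% of genes changed by a log2 of 1 and 24.6% of those changed by 2. The lack of calls therefore does not show that the genotypes were alike. *Cxcl12* stood at 2335 and 2823 against 1930.5, 3409 and 1361 (0.22 ± 0.27, adjusted p = 0.945) and *Sox17* at 534 and 369 against 382, 515 and 467 (-0.03 ± 0.30, adjusted p = 0.992). Leaving out the tag with mixed *Xist* and Y-linked genes gave 5 called genes.

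In the test of the day 21 genotype effect against capillary cells, 2 genes were called higher (0.0241%) and none lower (0%). For the gated cells of this test, too, genotype cannot be told apart from sex and library. *Cd74* stood at 5174 in β1 AT2-KO and 2511 in β1 fl/fl gated cells and at 3906 and 3003 in capillary cells (0.99 ± 0.18, adjusted p = 0.00324), and *Ly6a*, a surface marker of endothelium, at 4089 and 3475 against 3150 and 3837 (0.82 ± 0.17, adjusted p = 0.0279). Neither was called without β1 fl/fl mouse 1, the tag with mixed sex genes (adjusted p = 0.0602 and 0.351), or without β1 fl/fl mouse 2 (0.0732 and 0.211). With at least 3 gate UMIs the *Cd74* difference turned to -0.13 (adjusted p = 0.982) and that of *Ly6a* came to 0.67 (adjusted p = 0.72).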

How the data were processed

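Droplet single-cell libraries of lung cells were analysed as deposited. The authors made UMI count matrices with Cell Ranger 3.1 (mm10), and the processing notes also name Seurat 4.1.0. The deposited counts hold barcodes with at least 500 UMIs and are not normalized. The ambient RNA correction, quality filter and doublet removal that the study's methods describe are not in these counts, so RNA from lysed cells is included.

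Cells with fewer than 700 genes or a mitochondrial share outside 0.1 to 15% were dropped, and the rest were gated on UMIs as stated above. The 16 genes of the rule were left out of tests. General capillary cells had at least 2 *Gpihbp1* UMIs, venous cells at least 1 *Slc6a2* UMI and aerocytes at least 2 *Car4* UMIs, all with 0 UMIs of *Gja4*, *Gja5* and *Bmx*. Hashtags with 1% or more of a library's tag counts were taken as used, and cells were assigned to one where it reached 4 times its background. Of the gated cells 1731 carried 1 tag. UMIs were summed per mouse with at least 10 cells (14 of 15 mice) and fitted with edgeR 4.0.16 in R 4.3.3 (quasi-likelihood test, TMM normalization, filterByExpr, Benjamini-Hochberg threshold 0.05), over all groups for conditions and with mouse as a block for comparisons of cell sets within a mouse. In the latter, both sets come from the same animals, and the block is part of the design. Levels are CPM, counts per 1000000 UMIs summed over a set. The gated share was compared by exact two-sided permutation over mice (scipy 1.17.1, Python 3.11.15), and intervals are exact binomial at 95%.

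Scrublet's automatic threshold marked 0 to 1.55% of cells, so the highest scores were taken up to 0.8% per 1000 cells. These cells were kept, and removed as an alternative. Further alternatives were DESeq2 1.42.0 (test or size factors), no filter on low counts, at least 3 gate UMIs, *Gja5*/*Bmx*-positive cells only, only the groups compared, thinning to 2000 UMIs (21.7 to 42.6% of cells left out) and each mouse left out. The split by *Gja5* or *Bmx* was chosen after seeing the data. The gate, gene lists and comparisons were chosen with earlier results of these data known. Named genes were the rule's genes and the 4 most abundant and all called members of each list, the largest called rises and falls with at least 20 CPM between conditions or 50 between cell sets, and the genes called in tests of a difference. Genes with near-identical copies (*Tuba1a*, *Amd1*, *Gm8797*, MHC and Ly6 genes) may share reads. The scripts were tested on simulated data. Coordinates are from GENCODE on GRCm38.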

Additional observations from a re-analysis of the deposited data

Results flagged for a closer look

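In 11 results the effect in gated cells differed from the effect in general capillary cells of the same mice, by edgeR's test of the difference of log2 changes with Benjamini-Hochberg adjustment. At day 7, LPS against PBS in β1 AT2-KO mice differed by -5.50 ± 0.88 (SE) for *Clec3b* (adjusted p = 3.72e-05), -4.74 ± 0.69 for *Rsad2*, -4.28 ± 0.64 for *Gsn*, -3.99 ± 0.58 for *Dcn* and -2.39 ± 0.54 for *Serping1*. All 5 rested on PBS mouse 2. Without that mouse the differences were -2.28, -1.47, -1.38, -0.89 and -0.57, each with an adjusted p of 1.00. The fibroblast list stood at 600.9 CPM in the *Gja5*/*Bmx*-positive cells of the PBS library. The part of these cells in the 5 results was not tested.

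*Sftpa1* differed by 2.29 ± 0.39 (adjusted p = 0.000102) and came to -0.0249 without PBS mouse 1. *Car14* differed by -1.19 ± 0.23, with an adjusted p of 0.105 without PBS mouse 1 and 0.0696 without LPS β1 AT2-KO mouse 3. *Rcan1* differed by -1.16 ± 0.26 and was not called without LPS β1 AT2-KO mouse 2 or 3, without PBS mouse 1 or 2 (adjusted p = 0.175 to 0.564) or with only the 2 groups compared (0.0708). *Ackr3* differed by -0.99 ± 0.21 and was not called without LPS β1 AT2-KO mouse 1 or 3 or PBS mouse 1 or 2 (adjusted p = 0.0683 to 0.236). DESeq2 called none of *Car14*, *Rcan1* and *Ackr3*. At day 21 the genotype effect differed by 0.99 ± 0.18 for *Cd74* and 0.82 ± 0.17 for *Ly6a*, and neither was called without β1 fl/fl mouse 1 or mouse 2. With at least 3 gate UMIs they came to -0.13 (adjusted p = 0.982) and 0.67 (adjusted p = 0.72).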

How the results depend on the processing

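Most results kept their direction and their side of the threshold. Of the values of 506 named gene results under all alternatives, 7463 kept both, 628 kept the direction but were no longer called and 18 changed sign. Most of these values came from leaving out 1 mouse, and 2258 of the 7463 from doing so against aerocytes. The LPS against PBS results held less well. With DESeq2's test 52 kept both and 26 were no longer called. In *Gja5*/*Bmx*-positive cells 12 kept both, 35 were no longer called and 2 changed sign, and genes not tested there are not counted. Reading only the *Gja5*/*Bmx*-positive cells lowered the calls to 40 for LPS against PBS, 4 for β1 AT2-KO against β1 fl/fl at day 7 and 1533 against aerocytes, and changed the sign of 16 named gene results: against aerocytes *Aplnr* (-1.74), *Ptgs1* (-0.65), *Hes1* (-0.32), *Ifit1* (-0.23), *H2-K1* (-0.14), *Psmb8* (-0.11), *Lrg1* (-0.11), *Rtp4* (-0.0703), *Klf4* (-0.0595), *Sema3c* (-0.0474) and *Jund* (-0.0196), against veins *Ltbp4* (0.16) and *Sema3c* (-0.16), against capillary cells *Isg15* (0.0247), and after LPS *Mgp* (-0.45) and *Jun* (0.0039). Fewer cells and genes entered these fits, and day 21 could not be fitted.

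With DESeq2's test the calls were 282 for LPS against PBS, 199 for *Gja5*/*Bmx*-positive against *Gja4*-only cells and 0 for the day 7 LPS difference from capillary cells (191 at an unadjusted p under 0.05). A gate of at least 3 UMIs gave 265 for LPS against PBS, 44 for the day 7 genotype comparison, 33 for the LPS difference, 0 at day 21 and -0.13 for *Cd74*. Without a filter on low counts there were 566 for *Gja5*/*Bmx*-positive against *Gja4*-only cells (180 higher, 386 lower), 1007 against veins (648 higher, 359 lower), 127 for the day 7 genotype comparison, 16 for the LPS difference, 13 at day 21 and 5 for the genotype difference. Removing predicted doublets gave 17 for the LPS difference. The cause of these shifts was not tested. The day 21 gated share turned to 0.264 points with at least 3 gate UMIs and to 5.20 when thinned.

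Leaving out each mouse in turn gave 223 to 390 calls for LPS against PBS, 37 to 85 for the day 7 genotype comparison, 1 to 5 at day 21, 4 to 13 for the LPS difference, 0 to 4 and 0 to 5 for the day 7 and day 21 genotype differences, 238 to 316 for *Gja5*/*Bmx*-positive against *Gja4*-only cells, 219 to 269 against capillary cells, 434 to 690 against veins and 2572 to 2837 against aerocytes. The LPS difference of *Sftpa1* ran from -0.0249 (without PBS mouse 1) to 2.99. The gated share differed by 2.84 to 8.80, 5.25 to 12.5 and -4.39 to 0.547 points against day 7 β1 fl/fl, PBS and at day 21, and the *Gja5*/*Bmx*-positive share by 7.63 to 15.1, 15.4 to 22.9 and -23.98 to -8.98. The day 21 fits hold 19 to 29 gated cells per mouse. No paired analysis was possible because each condition is 1 library and the labels tie no mouse of 1 condition to a mouse of another.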
